A study of Homo sapiens with 6 samples.

Results

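The genes described here are the coactivators YAP1 and WWTR1 (the gene of TAZ), the transcription factors TEAD1 and TEAD4, and 6 genes known as their targets or regulators, CCN1, CCN2, ANKRD1, AMOTL2, LATS2 and AJUBA. They were chosen by name, with earlier results of these data known, and all 10 were found among the 19973 genes of the deposited read count table. RNA-seq was performed on the human line OVCAR3, established from an ovarian cancer, after transfection with shNC, a control hairpin (genotype WT), or with shNUF2, a hairpin against the kinetochore gene NUF2 (genotype NUF2 knockdown), with 3 libraries per group. Both groups carried a hairpin plasmid driven by a U6 promoter and were selected with puromycin to give stable cells, so that the control had been transfected and selected as well. The knockdown rests on a single hairpin. The labels do not say whether the libraries of a group came from separate cultures or whether the stable cells were clones, so that p-values measure the spread between these libraries, which may be technical.

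YAP and TAZ carry no DNA-binding domain and act in the nucleus by binding TEAD proteins, which place them at promoters and enhancers of genes such as CCN1, CCN2 and ANKRD1. The Hippo pathway restrains them: the kinases MST1 and MST2 (genes STK4 and STK3) activate LATS1 and LATS2, which phosphorylate YAP and TAZ and keep them in the cytoplasm or mark them for degradation. LATS2 and AMOTL2 are themselves target genes that act back on YAP, whereas AJUBA binds and inhibits the LATS kinases. In ovarian and other carcinomas the pathway is known for its response to cell density, cell shape and adhesion. RNA-seq measures transcripts only, and the phosphorylation and location of YAP and TAZ were not measured in these libraries.

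The promoter sequences of the members are shown first, because several of them are known as target genes of YAP and TEAD. RefSeq promoter windows of 300 bases (250 before and 50 after the start, GRCh38.p14) were at hand for 7 of the 10 members in 10 windows, and WWTR1, AMOTL2 and AJUBA each had a pair of windows. No window was at hand for CCN1, TEAD1 and TEAD4. Both strands were searched for GGAATG, the core of the TEAD binding site, and for TGANTCA, a loose form of the AP-1 site that allows any base in its centre. GGAATG occurred in 6 of the 10 windows (60.0%), against 14.0% of all 35116 RefSeq windows of the same length. CCN2 held it 3 times (0.128% of all windows held it 3 times or more), ANKRD1 held it 2 times, and YAP1, LATS2 and 1 window each of AMOTL2 and AJUBA held it once, while neither window of WWTR1 held it. In AMOTL2 and AJUBA the match was in window 2, which lies within the gene, whereas window 1, at the upstream end of the gene, held none. TGANTCA occurred in the ANKRD1 window alone (7.71% of all windows), with T as its centre base, and no match shared bases with another. The members were picked by name as parts of the pathway, several of them as known targets, so that these shares are a description, and a match of letters is not a measured binding site.

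The window of CCN2, which rose with shNUF2, and that of YAP1, whose level did not pass the test, are shown on the strand of each gene with the GGAATG letters in capitals. The CCN2 stretch is chr6:131951374-131951622 (minus strand) and ends 2 bases before the start. Its 3 matches begin 169, 104 and 95 bases before the start, the last 2 close together. The YAP1 stretch is chr11:102110197-102110446 (plus strand), with its match 162 bases before the start.
CCN2: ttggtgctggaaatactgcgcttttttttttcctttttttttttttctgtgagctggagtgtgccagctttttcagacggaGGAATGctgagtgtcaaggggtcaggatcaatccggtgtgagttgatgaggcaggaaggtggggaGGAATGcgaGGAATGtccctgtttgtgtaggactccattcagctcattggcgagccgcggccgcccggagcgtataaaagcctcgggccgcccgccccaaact
YAP1: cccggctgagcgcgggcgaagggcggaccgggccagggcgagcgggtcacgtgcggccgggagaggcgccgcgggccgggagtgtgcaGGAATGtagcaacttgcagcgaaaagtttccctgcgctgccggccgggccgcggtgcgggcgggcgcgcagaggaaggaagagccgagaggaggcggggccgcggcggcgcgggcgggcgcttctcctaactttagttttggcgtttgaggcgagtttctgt

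For ANKRD1, LATS2, AMOTL2 and AJUBA, 30 bases around each match are shown, so that the letters next to the core can be compared. The ANKRD1 stretches are chr10:90921290-90921319, chr10:90921198-90921227 and, for TGANTCA, chr10:90921264-90921293. The others are chr13:21061560-21061589 for LATS2, chr3:134374499-134374528 for AMOTL2 and chr14:22976884-22976913 for AJUBA, all on the minus strand, with the matched letters in capitals. In AMOTL2 the match is on the opposite strand and reads CATTCC. The match of LATS2 begins at base 10, counting the start as base 1, whereas all others lie before it.
ANKRD1 distal core: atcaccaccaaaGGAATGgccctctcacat
ANKRD1 proximal core: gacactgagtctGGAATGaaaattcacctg
ANKRD1 AP-1 letters: acatttcttccTGATTCAcatattcagcag
LATS2: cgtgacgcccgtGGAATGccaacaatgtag
AMOTL2: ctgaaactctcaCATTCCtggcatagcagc
AJUBA: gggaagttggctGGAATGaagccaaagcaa

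**Figure D1:**
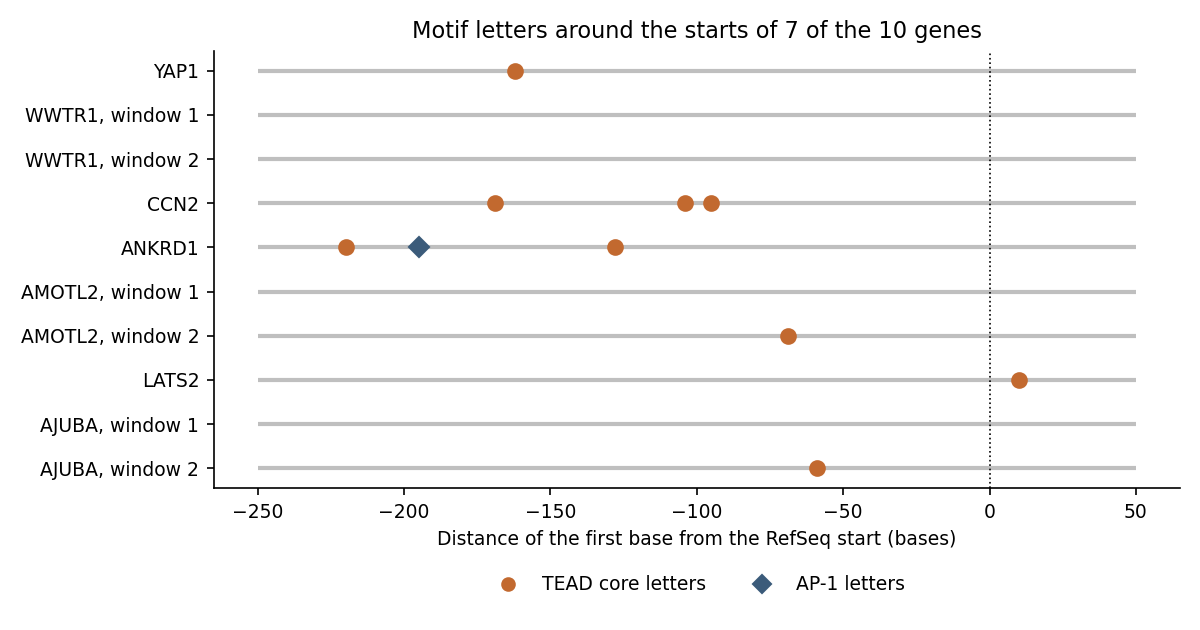
Positions of the TEAD core (circles) and AP-1 letters (diamond) along the 10 RefSeq promoter windows of 7 members, as the distance in bases of the first matched base from the annotated start (dotted line). CCN2 has 3 circles, ANKRD1 has 2 circles and the diamond, and 4 of the windows have no symbol.

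The authors deposited the number of reads on each gene, and the libraries held 13057534 to 16995452 counted reads in all. Counts were normalised with edgeR's TMM method and are given as CPM (counts scaled to the library total), and differences between shNUF2 and shNC were tested with edgeR (quasi-likelihood test), with p-values adjusted after Benjamini and Hochberg over the 12874 genes with enough counts. The shNC libraries held 903, 1096 and 1092 reads of NUF2 itself, the shNUF2 libraries 281, 290 and 384, a log2 fold change of -1.51 (edgeR, standard error 0.08, adjusted p = 2.17e-15), as the hairpin labels state. Of 8 markers of ovarian serous epithelium, WT1 was at or near 0 (at most 7 reads in any library) and EPCAM and PAX8 had 44 to 91 and 143 to 252 reads, whereas KRT7, KRT8, KRT18, MSLN and MUC16 had 371 reads or more in every library. Of the 7 tested, 4 rose with shNUF2, among them KRT8 by 1.04 on the log2 scale, and 3 fell, among them MSLN and MUC16 by 0.75 each (edgeR, adjusted p under 0.05). With WT1 nearly absent and EPCAM low, these markers did not settle whether the cells are the line named on the label. Markers of other cell types were low, apart from COL1A1. The summed FPKM (reads scaled by gene length and library total, as deposited) was 0.636 to 0.957 with shNC and 1.59 to 2.40 with shNUF2 for 5 leukocyte markers, 0.263 to 0.439 and 0.462 to 0.746 for 4 endothelial markers, and 9.44 to 10.1 and 7.36 to 8.24 for 7 fibroblast markers, of which COL1A1 gave 835 to 1468 reads and COL1A2, LUM and THY1 at most 2. Within that list COL1A1 was lower with shNUF2, whereas DCN went from 65, 40 and 67 reads to 130, 104 and 117 and COL3A1 from 1, 0 and 2 reads to 15, 15 and 5. The defining leukocyte genes PTPRC and CD3E had at most 11 and 1 reads, and the endothelial gene CDH5 had 1, 1 and 4 reads with shNC against 15, 19 and 27 with shNUF2, whereas PECAM1, the endothelial marker with the most reads, had 46, 24 and 49 against 28, 43 and 32. The part of such cells in the results was not tested. In bulk RNA, fewer cells of a kind and less RNA per cell cannot be told apart.

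The 10 members did not move together. With shNUF2, 7 of them rose (adjusted p under 0.05), 2 fell and YAP1 did not pass the test, where 33.9% of all genes tested rose and 33.8% fell. With the study's thresholds, more than 1 on the log2 scale in either direction at an unadjusted p under 0.05, CCN1, CCN2 and ANKRD1 were upregulated (3 of 10, or CCN1 and CCN2 alone without ANKRD1, against 9.41% of all genes tested) and TEAD1 and AJUBA were downregulated (2 of 10, against 4.16%). In 9 of the 10 genes the values of both groups did not overlap, which held for 70.6% of all genes tested. The median log2 fold change was 0.34 over the members and -0.01 over all genes tested. ANKRD1 had enough counts only through the shNUF2 libraries, so that its place among the genes tested already implied a difference. Without it, a count added after the data were seen, 6 of 9 members rose, 2 fell and 8 did not overlap, with a median log2 fold change of 0.30.

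**Figure D2:**
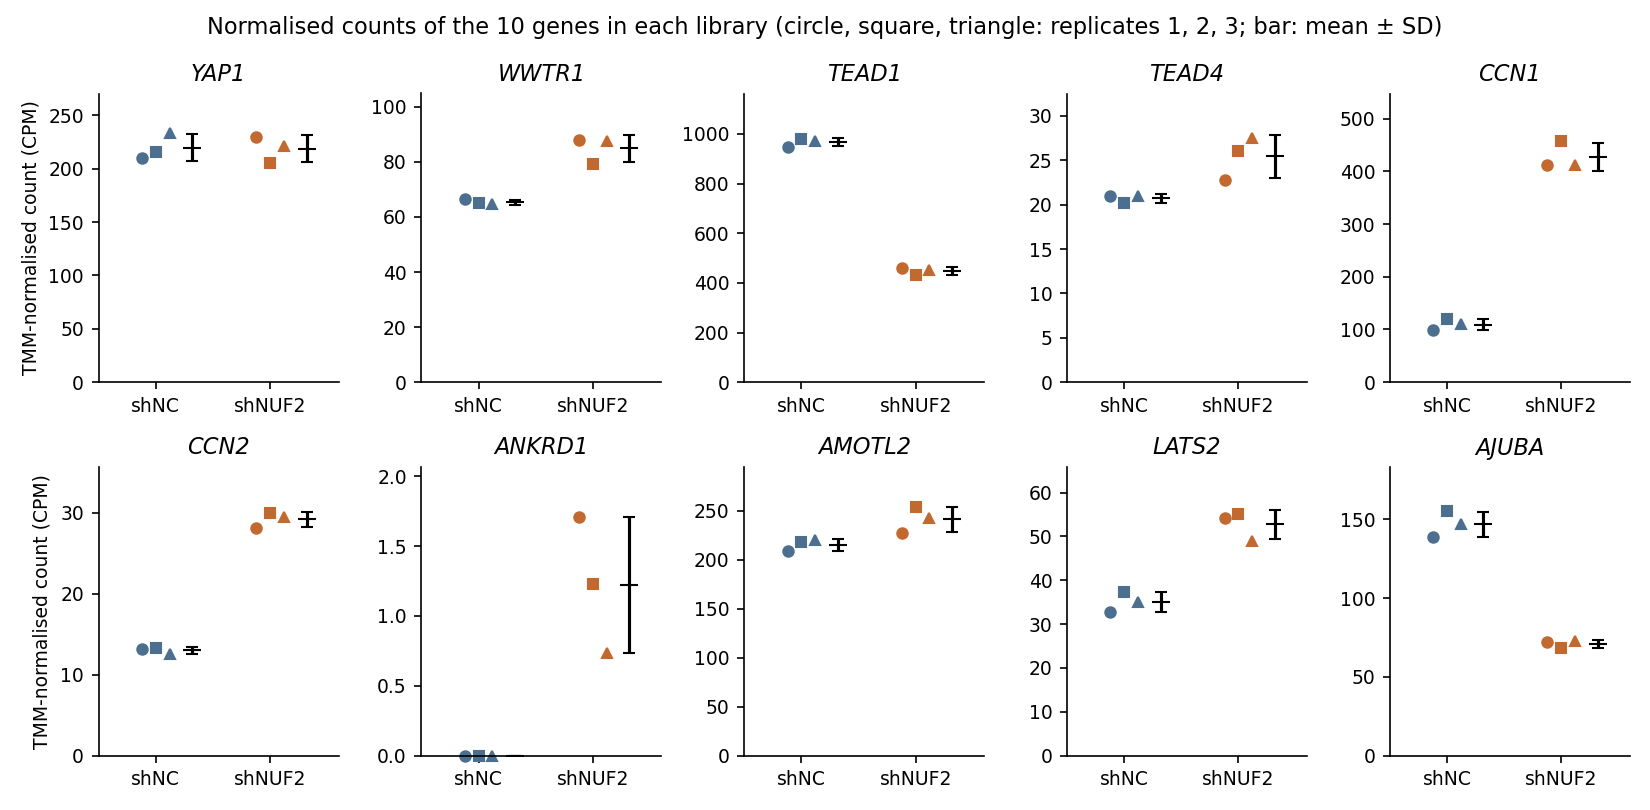
TMM-normalised counts (CPM, each axis from 0) of the 10 members in the 3 shNC (blue) and 3 shNUF2 (orange) libraries, with circle, square and triangle for replicates 1, 2 and 3 and the mean ± SD beside them. The groups are apart in every panel but that of YAP1, and the TEAD1 and AJUBA points are lower with shNUF2.

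YAP1 and WWTR1, which encode the coactivators, behaved differently. YAP1 (ENSG00000137693, chromosome 11 from 102110447 to 102233424, plus strand, GRCh38) had 210, 216 and 234 CPM with shNC and 230, 205 and 221 CPM with shNUF2. The groups overlapped, with 220 ± 12.4 CPM in shNC and 219 ± 12.4 CPM in shNUF2 (SD, n = 3 each). The log2 fold change was -0.01 with a 95% interval from -0.11 to 0.09 (edgeR, adjusted p = 0.91), so that a change of the YAP1 transcript beyond that interval was not seen at this depth. WWTR1 (ENSG00000018408, chromosome 3 from 149517235 to 149736714, minus strand), the gene of TAZ, had 66.4, 65.0 and 64.8 CPM with shNC and 88.1, 79.2 and 87.4 CPM with shNUF2. The shNUF2 values were all above the shNC values, and WWTR1 was 1.30-fold higher (log2 fold change 0.38, standard error 0.06, edgeR, adjusted p = 1.48e-06).

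Levels of different genes were compared per length, with the deposited FPKM. The ratio of YAP1 to WWTR1 FPKM was 4.18, 4.402 and 4.77 in the shNC libraries and 3.45, 3.43 and 3.35 in the shNUF2 libraries. It was lower in all 3 shNUF2 libraries, 0.767-fold on average (p = 0.1 in a two-sided exact permutation test, which cannot give less with 3 libraries a group). YAP1 was the more abundant transcript of the pair in all 6 libraries. Their summed FPKM was 43.2 ± 1.97 with shNC and 44.2 ± 2.12 with shNUF2 (SD, n = 3 each), and these ranges overlapped (p = 0.6 in the same exact permutation test).

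TEAD1 and TEAD4 encode DNA-binding partners of YAP and TAZ, and they moved in opposite directions. TEAD1 (ENSG00000187079, chromosome 11 from 12674421 to 12944737, plus strand) had 948, 981 and 970 CPM with shNC and 458, 431 and 453 CPM with shNUF2. The groups were far apart relative to their spread, with 966 ± 17.01 and 447 ± 14.7 CPM (SD, n = 3 each), a ratio of 0.463 and a log2 fold change of -1.11 (standard error 0.04, edgeR, adjusted p = 2.01e-18). TEAD4 (ENSG00000197905, chromosome 12 from 2959330 to 3040676, plus strand) had 21.0, 20.2 and 21.0 CPM with shNC and 22.8, 26.1 and 27.5 CPM with shNUF2. All shNUF2 values were above the shNC values, and TEAD4 was higher by 0.30 on the log2 scale (standard error 0.10, edgeR, adjusted p = 0.0075). Without shNUF2 replicate 3 the log2 fold change of TEAD4 was 0.24 and no longer passed (edgeR, adjusted p = 0.057).

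The remaining TEAD genes, TEAD2 and TEAD3, bind the same coactivators. TEAD3 was higher (log2 fold change 0.37, standard error 0.07, edgeR, adjusted p = 4.19e-05) and TEAD2 had a log2 fold change of -0.19 that did not pass the test (edgeR, adjusted p = 0.093). TEAD1 made up 75.3, 76.3 and 76.3% of the summed TEAD FPKM in the shNC libraries and 56.9, 55.8 and 54.5% in the shNUF2 libraries. TEAD1 thus remained the most abundant TEAD transcript in all 6 libraries, with a smaller share in each shNUF2 library. The share of TEAD3 was 9.95 ± 0.18% with shNC and 20.4 ± 0.34% with shNUF2, and that of TEAD4 was 7.66 ± 0.26% and 14.9 ± 1.42% (SD, n = 3 each). The share of TEAD2, which did not rise itself, was 6.42 ± 0.31% and 8.88 ± 0.58%, so that a larger share need not mean a higher level. The ratio of TEAD1 to TEAD4 FPKM was 9.58, 10.4 and 9.83 with shNC and 4.28, 3.51 and 3.50 with shNUF2, 0.378-fold on average (p = 0.1 in the same exact permutation test, again its lowest possible value).

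The summed FPKM of the 4 TEAD genes was 120 ± 1.93 with shNC and 74.0 ± 2.47 with shNUF2 (SD, n = 3 each). It was lower in all 3 shNUF2 libraries, 0.614-fold on average (p = 0.1 in the same exact test). With the coactivators nearly level, the ratio of YAP1 and WWTR1 FPKM to TEAD FPKM was 0.350, 0.349 and 0.377 in the shNC libraries and 0.624, 0.583 and 0.587 in the shNUF2 libraries, 1.67-fold higher on average (same exact test, p = 0.1). The TEAD shares and these sums were chosen after the values of the members had been seen.

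**Figure D3:**
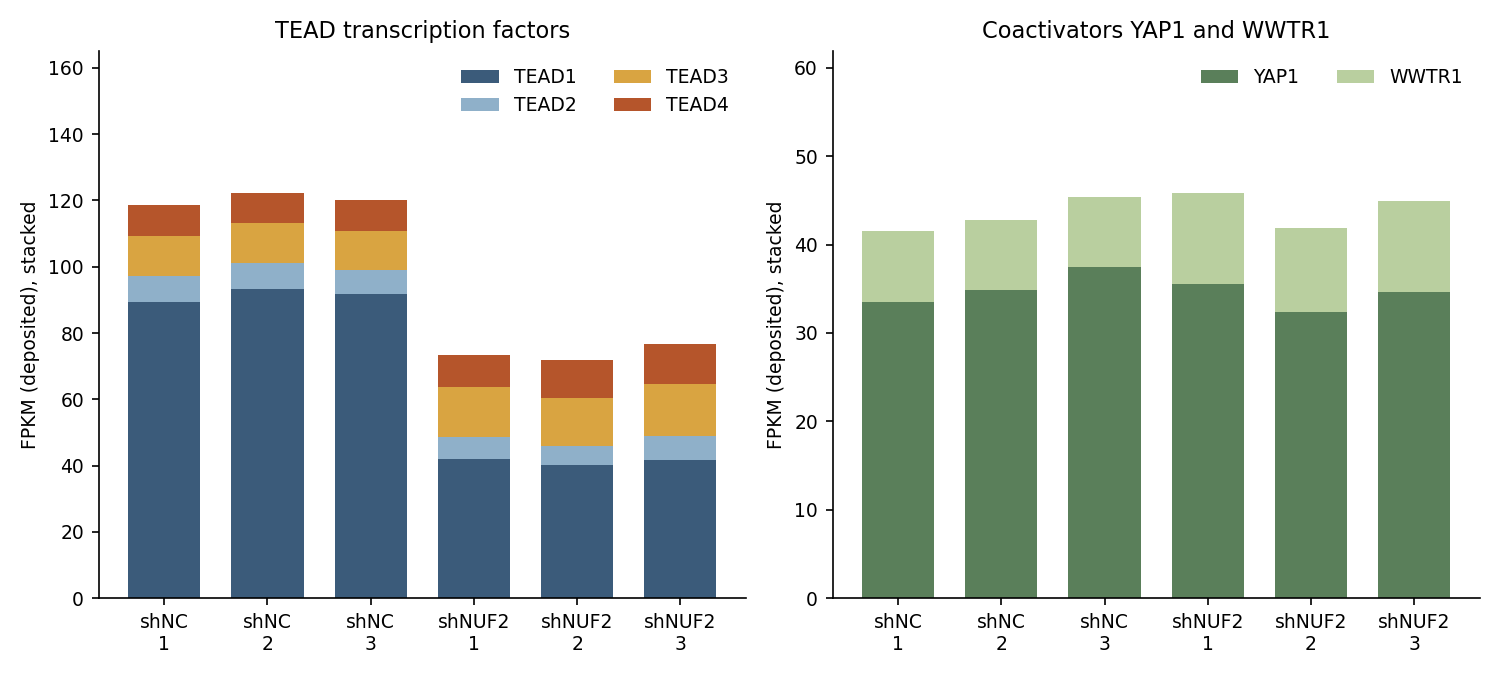
Deposited FPKM of the 4 TEAD genes (left, stacked) and of YAP1 and WWTR1 (right, stacked) in each of the 6 libraries, with axes from 0. The TEAD1 segment is shorter in every shNUF2 library and the summed TEAD bar falls from about 120 to about 74.0 FPKM, whereas the bars of the coactivators overlap between groups.

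CCN1 and CCN2 encode secreted matricellular proteins that bind integrins, and they are the most widely used readouts of YAP and TEAD. For CCN1 (ENSG00000142871, chromosome 1 from 85580761 to 85584589, plus strand) the shNC libraries held 1409, 1908 and 1884 reads, and the shNUF2 libraries 5557, 5955 and 6187. Normalised, it had 99.1, 119 and 110 CPM against 412, 458 and 411 CPM. Every shNUF2 library was more than 3 times as high as every shNC library, and CCN1 rose 3.91-fold (log2 fold change 1.96, standard error 0.06, edgeR, adjusted p = 9.59e-21). CCN2 (ENSG00000118523, chromosome 6 from 131948176 to 131951372, minus strand), whose window holds the 3 TEAD cores shown above, had 13.2, 13.3 and 12.6 CPM with shNC and 28.2, 30.01 and 29.5 CPM with shNUF2. It rose 2.24-fold (log2 fold change 1.17, standard error 0.10, edgeR, adjusted p = 4.10e-11), with a 95% interval from 0.97 to 1.37 that reaches below the study's threshold.

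CCN1 rose more than CCN2. The ratio of CCN1 to CCN2 FPKM was 4.74, 5.69 and 5.51 with shNC and 9.25, 9.65 and 8.83 with shNUF2, 1.74-fold higher on average with no overlap (p = 0.1 in the same exact test, its lowest possible value). This ratio was chosen after the values were seen. Of the other 4 genes of the CCN family, CCN3 rose (log2 fold change 1.08, standard error 0.17, edgeR, adjusted p = 3.32e-06) and CCN5, which lacks the C-terminal domain of its relatives, fell by 0.77 on the log2 scale (standard error 0.04, edgeR, adjusted p = 2.52e-14). CCN4 had a log2 fold change of -0.51 that did not pass (edgeR, adjusted p = 0.15), and CCN6 had too few reads to be tested, 6, 0 and 2 in the shNC libraries and 0 in all 3 of shNUF2. Thus 1 of the 3 other family members tested rose and 1 fell, as did 33.9% and 33.8% of all genes tested.

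ANKRD1, an ankyrin repeat protein of the nucleus and the sarcomere whose gene is a direct YAP target, was almost silent. ANKRD1 (ENSG00000148677, chromosome 10 from 90912096 to 90921087, minus strand) was not detected in any shNC library (0 reads), whereas shNUF2 replicates 1 to 3 gave 23, 16 and 11 reads. Against 3 reads per shNC library, the limit that a count of 0 allows (0.191 CPM on average), the shNUF2 level of 1.22 ± 0.49 CPM (SD, n = 3), taken at its mean, was at least 6.40-fold higher. No p is given for ANKRD1, because it had enough counts for the test through one group alone. This limit covers the counting error of the shNC libraries only, and not the spread of the shNUF2 libraries, the lowest of which had 0.731 CPM. At 0.404 to 0.931 FPKM, ANKRD1 remained by far the least abundant member in the shNUF2 libraries.

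AMOTL2 and LATS2, target genes whose products hold YAP back, were both higher. AMOTL2 (ENSG00000114019, chromosome 3 from 134355347 to 134375479, minus strand), a junction-associated scaffold of the angiomotin family, had 208, 218 and 220 CPM with shNC and 228, 253 and 242 CPM with shNUF2. The groups did not overlap, but the shift was small next to that of CCN1, at 0.16 on the log2 scale (standard error 0.05, edgeR, adjusted p = 0.0032), and with limma on log2 of FPKM plus 1 it did not pass (log2 fold change 0.12, adjusted p = 0.058). LATS2 (ENSG00000150457, chromosome 13 from 20973036 to 21061586, minus strand) had 32.8, 37.3 and 35.0 CPM with shNC and 54.2, 55.1 and 48.9 CPM with shNUF2. Here too the groups were apart, and LATS2 rose 1.51-fold (log2 fold change 0.59, standard error 0.07, edgeR, adjusted p = 7.55e-08). Its paralog LATS1 fell by 0.41 on the log2 scale (standard error 0.07, edgeR, adjusted p = 3.92e-06), and AMOTL1, the paralog of AMOTL2, rose by 0.84 (standard error 0.06, edgeR, adjusted p = 7.99e-13).

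AJUBA (ENSG00000129474, chromosome 14 from 22971177 to 22982551, minus strand) encodes a LIM protein that binds LATS kinases at junctions under tension. It had 139, 155 and 147 CPM with shNC and 72.4, 68.2 and 72.5 CPM with shNUF2. The shNUF2 libraries were lower throughout, with 147 ± 7.97 against 71.0 ± 2.42 CPM (SD, n = 3 each) and a log2 fold change of -1.05 (standard error 0.05, edgeR, adjusted p = 1.17e-15), the 95% interval of which, from -1.16 to -0.94, spans the study's threshold. Its relatives LIMD1 and WTIP fell by 0.48 and 0.89 on the log2 scale (standard errors 0.07 and 0.14, edgeR, adjusted p = 4.11e-07 and 5.10e-06), where 33.8% of all genes tested fell. Both relatives were named after their values had been seen.

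**Figure D4:**
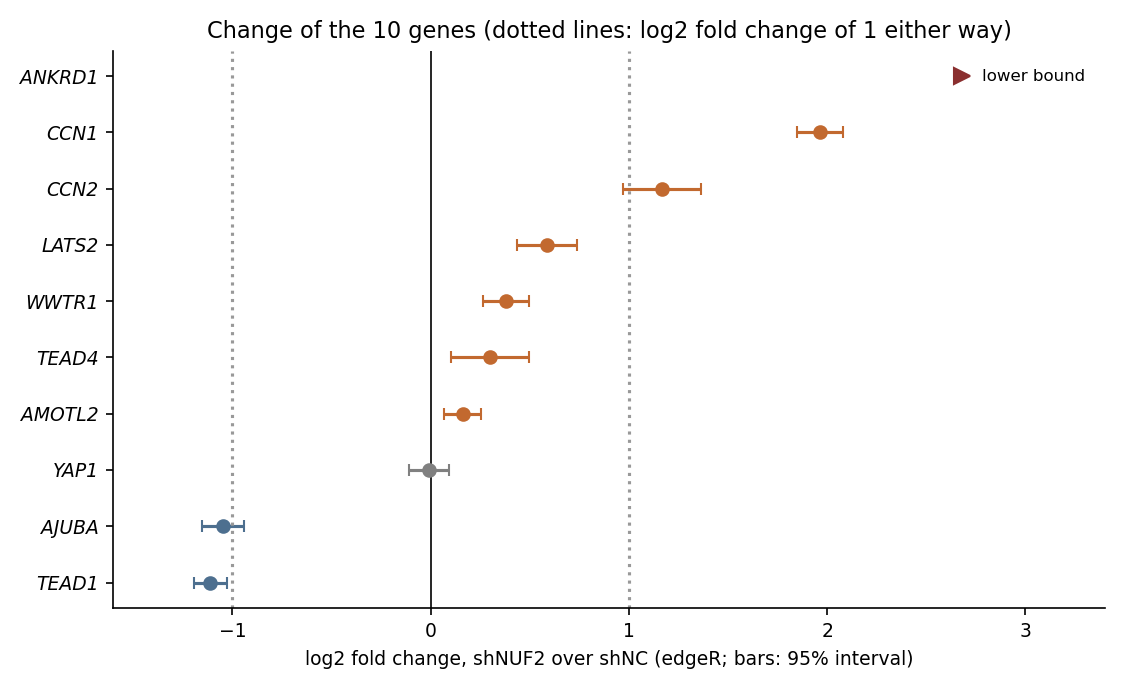
Log2 fold changes (shNUF2 over shNC, edgeR) of the 10 members with 95% intervals, orange for higher, blue for lower and grey for an adjusted p of 0.05 or more. ANKRD1 is drawn as a dark red triangle at the lower bound of 2.68, which uses the mean of the shNUF2 libraries. CCN1 stands at 1.96, and TEAD1 and AJUBA stand at -1.11 and -1.05.

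Ordered by FPKM in the shNC libraries, TEAD1 came first with 91.4 ± 2.07, followed by YAP1 (35.3 ± 2.04), AMOTL2 (33.7 ± 1.10), CCN1 (29.9 ± 2.93) and AJUBA (25.3 ± 1.50). TEAD4 (9.22 ± 0.18), WWTR1 (7.92 ± 0.08), LATS2 (6.32 ± 0.44), CCN2 (5.64 ± 0.18) and ANKRD1 (listed at 0) were lower (SD, n = 3 each). YAP1 and AMOTL2 overlapped in their libraries, as did AMOTL2 and CCN1, whereas all other neighbours were apart. In the shNUF2 libraries CCN1 came first with 114 ± 8.06 FPKM, ahead of TEAD1 with 41.2 ± 1.02, AMOTL2 with 36.7 ± 2.30 and YAP1 with 34.2 ± 1.63. CCN2 (12.3 ± 0.51), AJUBA (11.9 ± 0.32), TEAD4 (11.05 ± 1.13), WWTR1 (10.03 ± 0.51) and LATS2 (9.27 ± 0.60) then followed so closely that each overlapped with the next. CCN1 thus moved from the fourth place to the first.

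Beyond the members, 17 further genes widely used as YAP and TAZ targets were all tested, and 12 rose, 4 fell and NUAK2 did not pass the test (edgeR, adjusted p under 0.05, where 33.9% and 33.8% of all genes tested rose and fell). The list was chosen with earlier results of these data known, so that its counts are a description. Their median log2 fold change was 0.30, and with the study's thresholds 5 were upregulated and 0 downregulated (9.41% and 4.16% of all genes tested). NT5E, the ecto-enzyme CD73, had the largest increase, from 22.8 ± 1.22 to 89.4 ± 3.03 CPM (log2 fold change 1.97, standard error 0.07). CCDC80, a secreted matrix protein, followed with 1.94 (standard error 0.09), F3, the tissue factor that starts coagulation, with 1.68 (0.06), and the stress-induced GADD45A with 1.62 (0.06). The largest adjusted p of these 4 genes was 7.77e-16 for CCDC80 (edgeR). Several of these genes also respond to other pathways, and their part was not tested.

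The 4 targets that fell were MYOF, a ferlin of membrane repair, by 0.58 on the log2 scale, the receptor tyrosine kinase AXL by 0.48, ARHGEF17 by 0.27 and the phosphatase PTPN14 by 0.17. Their standard errors were 0.04, 0.04, 0.06 and 0.05, and the largest adjusted p was 0.0044 for PTPN14 (edgeR). RefSeq windows were at hand for 12 of the 17 genes in 13 windows, of which 5 held the letters GGAATG (38.5%, against 14.0% of all windows). The windows of NT5E, CCDC80 and MYOF held no such letters, and that of F3 held the letters TGANTCA 2 times.

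Of 27 further Hippo pathway genes (kinases, scaffolds, inhibitors and TEAD partners), 24 were tested, of which 13 rose, 8 fell and 3 did not pass (edgeR, adjusted p under 0.05, where 33.9% and 33.8% of all genes tested rose and fell). This list too was chosen with earlier results of these data known. The median log2 fold change was 0.26, and 2 genes, FRMD6 and FAT4, passed the study's thresholds, both upward, which is close to the 9.41% of all genes tested that did so. FRMD6, a FERM-domain protein upstream of the kinases, had a log2 fold change of 1.58 (standard error 0.07, edgeR, adjusted p = 5.47e-17), and FAT4, an atypical cadherin, of 1.21 (0.10, edgeR, adjusted p = 7.23e-11). MAP4K4, a kinase that can phosphorylate LATS, rose by 0.98 (0.05, edgeR, adjusted p = 2.55e-15), next in size before AMOTL1. Among the decreases, WWC3, a relative of the scaffold KIBRA, fell by 0.90 (0.06, edgeR, adjusted p = 2.74e-13), followed by WTIP, LIMD1 and LATS1. The core kinases STK3 and STK4 and their scaffold SAV1 rose by 0.68, 0.58 and 0.44 on the log2 scale (standard errors 0.10, 0.05 and 0.06, edgeR, largest adjusted p = 1.25e-06), while the adaptor MOB1A fell by 0.29 and MOB1B, at 0.08, did not pass. AMOT and VGLL1 had at most 3 reads in any library, and DCHS1, the cadherin ligand of FAT4, had too few for the test (0, 0 and 1 in the shNC libraries, 9, 13 and 18 in the shNUF2 libraries).

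**Figure D5:**
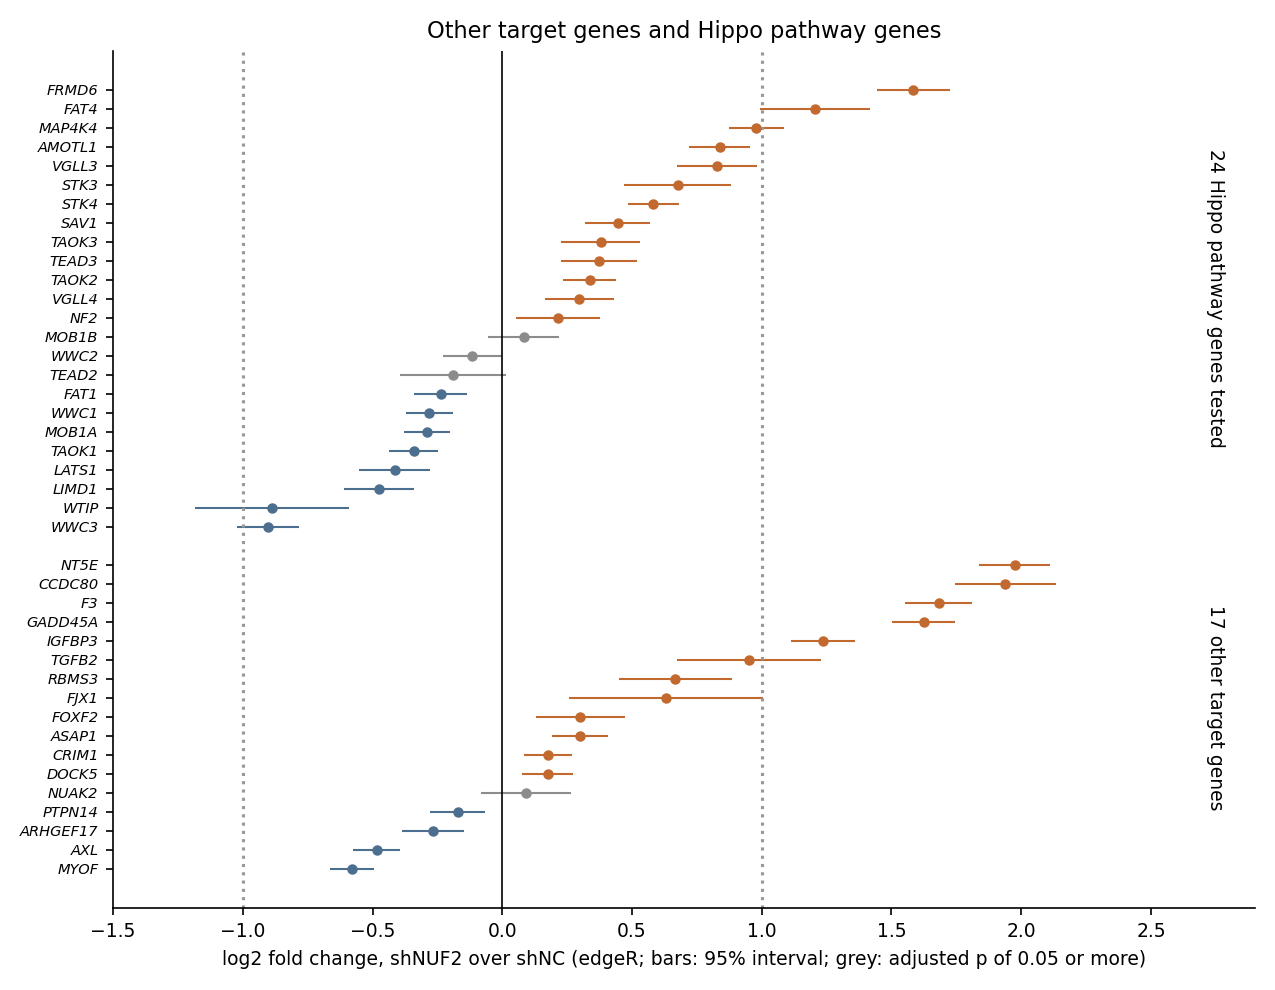
Log2 fold changes (shNUF2 over shNC, edgeR) with 95% intervals of 24 further Hippo pathway genes (top) and 17 further target genes (bottom), sorted within each list, orange for higher, blue for lower and grey for an adjusted p of 0.05 or more. The target genes reach 1.97 for NT5E and -0.58 for MYOF, and the Hippo genes 1.58 for FRMD6 and -0.90 for WWC3.

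The genes whose libraries lay closest to those of CCN1 and CCN2 were sought among 9984 other genes whose average log2 CPM was 3 or more, by the root mean square distance over the 6 libraries of the log2 CPM from the shNC mean. For CCN1 they were CCL5 (0.090), SNAI2 (0.11), ITGB8 (0.12), TNFAIP6 (0.13) and ATXN1 (0.13), with log2 fold changes from 1.87 to 2.09. For CCN2 they were CBLB (0.032), ISG20 (0.037), RTN2 (0.043), BAG3 (0.044) and CALR (0.046), with log2 fold changes from 1.14 to 1.20. With 2 groups this distance mainly compares the size of the change.

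In GENCODE release 29 an exon of YAP1, WWTR1, CCN2, AMOTL2 or AJUBA overlaps an exon of another gene. For YAP1, WWTR1 and CCN2 the other gene is an antisense gene, for AMOTL2 a pseudogene on the same strand, and for AJUBA a coding gene on the same strand, AL132780.3, which was listed with 0 reads in every library. YAP1 also has 2 processed pseudogenes. The strand setting of the counting is not given in the sources used here, so that the values of these 5 genes may include or lack shared reads.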

How the data were processed

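RNA libraries were prepared with a strand-specific mRNA kit and sequenced on an Illumina NovaSeq instrument. The submitters' processing notes name cutadapt, HISAT and HTSeq on GRCh38.p13, without versions or roles, and the annotation release is not given in the sources used here. The authors deposited raw read counts per gene without normalization, and FPKM values that equal the count divided by gene length and library total to a relative deviation of at most 2.71e-07. Gene positions are those of the deposited table.

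The counts were fitted in R 4.3.3 with edgeR 4.0.16 (filterByExpr, TMM, quasi-likelihood test, all 6 libraries in one fit without covariates, Benjamini-Hochberg adjustment). Standard errors are the log2 fold change over the root of the F statistic, and 95% intervals use its degrees of freedom. Ratios of FPKM were compared by exact permutation. The study's threshold on the fold change was read as log2. The procedures were tested on simulated data. Alternatives were other scalings, filters, a replicate block, each library left out, DESeq2 1.42.0 and limma 3.58.1 on log2 FPKM with pseudocounts of 1 and 0.1. Motifs were counted with Python 3.11.15. The members and lists were chosen with earlier results of these data known. Besides the members, the 4 genes with the largest change in each direction of a list are named, with the 5 genes nearest to CCN1 and to CCN2. The paralogs of members, STK3, STK4, SAV1, MOB1A, DCHS1 and the genes that did not pass or were not tested were named after their values were seen. Columns of gene annotation were not used as measurements.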

Additional observations from a re-analysis of the deposited data

How the results depend on the processing

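The counts of members, other targets and Hippo pathway genes that passed stayed within 1.5 times under all alternatives run, and the log2 fold changes of the members other than YAP1 kept their direction. YAP1, which did not pass under any of them, had a log2 fold change of 0.0012 with DESeq2 size factors in edgeR, 0.0013 with DESeq2's Wald test, 0.015 when genes needed 1 CPM or more in all 6 libraries, and from -0.044 to 0.035 with each library left out (adjusted p between 0.42 and 0.99 over the alternatives with edgeR, DESeq2 and limma). The members that rose numbered 6 or 7 with a library left out, those that fell 2. These counts of rises include ANKRD1, which had enough counts only through the shNUF2 libraries. ANKRD1 was not tested under the 1 CPM filter, and with limma on log2 of FPKM plus 1 its log2 fold change was 0.73, which understates a change from 0. On that scale CCN2 had 1.01. AMOTL2 did not pass with limma at either pseudocount (adjusted p = 0.058 for both). Over all genes tested, 1212 and 536 passed the study's thresholds upward and downward, 1770 and 634 with no filter on low counts, 756 and 397 under the 1 CPM filter and 430 and 206 with limma on log2 of FPKM plus 1.

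The labels number the replicates 1 to 3 in both groups without saying that a number marks a shared batch. The deviations of same-numbered libraries from their group means correlated by 0.02, 0.0046 and -0.03 across genes. With the replicate block, 7 members rose, again with ANKRD1 among them, and 2 fell. In the same fit 12 other targets rose and 4 fell, and NUF2 had a log2 fold change of -1.51. With 3 libraries per group, groups that do not overlap cannot go below p = 0.1 in an exact permutation test.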
